A study of Mus musculus with 11 samples.

Results

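The genes described here make, conjugate, move and regulate bile acids: Cyp7a1, Cyp8b1, Cyp27a1, Cyp7b1, Slc27a5, Baat, Slc10a1, Abcb11, Nr1h4 and Nr0b2. They are 10 of the 30142 genes that had a row annotated to a single gene on the array, and all 10 passed the signal minimum and were among the 18337 genes tested. RNA was measured in hepatocytes isolated from male mice aged 12 weeks. The 4 genotypes were wildtype (labelled Nemo cre-, n = 2), liver-specific knockout of Nemo (Nemo cre+, called Nemo KO below, n = 3), knockout of Cxcr6 (Nemo_CXCR6 cre-, called Cxcr6 KO, n = 3) and both deletions together (Nemo_CXCR6 cre+, called double KO, n = 3). Nemo (symbol Ikbkg) regulates the kinase complex that activates NF-kB, and Cxcr6 is a chemokine receptor of T and NKT cells. The labels do not name the promoter that drives Cre. Wildtype and Nemo KO carry the line name Nemo and the other groups the line name Nemo_CXCR6, so loss of Cxcr6 and mouse line cannot be told apart, while each effect of Nemo deletion was measured within a line. The replicates are called biological, without a statement that each is a separate mouse, so p-values measure the spread between these samples.

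Hepatocytes make bile acids from cholesterol by a classic route that starts with Cyp7a1 and an alternative route that starts with Cyp27a1 and continues with Cyp7b1. Bile acids are then joined to taurine or glycine, secreted into the canaliculus by the export pump Abcb11 and taken up again from portal blood by Slc10a1. They also act as ligands of the nuclear receptor Nr1h4 (Fxr), which induces the corepressor Nr0b2 (Shp), and Nr0b2 in turn represses Cyp7a1 and Cyp8b1.

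Values are log2 signals, on which a difference of 1 is a doubling of signal, and changes are log2 fold changes ± the standard error of a limma fit to all 4 groups, with Benjamini-Hochberg adjusted p across the 18337 tested genes. A gene was called at 5%. The effect of Nemo deletion was taken in the Nemo line (Nemo KO against wildtype), in the Nemo_CXCR6 line (double KO against Cxcr6 KO) and as the mean of both, named the average Nemo effect. Neither targeted gene checked the genotypes: Ikbkg had means between 9.05 and 9.32 in the 4 groups, Cxcr6 lay between 4.94 and 5.56 on all arrays, near the array medians of 5.19 to 5.38, and whether these rows lie in the deleted parts is not known. The mean over 10 hepatocyte markers was high on all 11 arrays, at 18.08 to 18.40. Single markers were lower, such as Fah (14.61 to 15.61) and Asgr1 (12.76 to 13.73). The 2 wildtype arrays stood apart from each other (r = 0.984 across all rows, against 0.990 to 0.995 for other pairs of a group). This r does not show which of them is unusual. Replicate 1 stood far out for Onecut1, a regulator of bile acid genes (15.95, against 8.10 to 11.48 on the other arrays). Replicate 2 stood far out for the detoxification gene Cyp2b9 (16.49, against 7.63 to 11.94 on the other arrays). Several genes below turn on wildtype replicate 2, and their values are given with and without it. A fit without either wildtype array leaves a single one in that group, whose spread is then assumed to be that of the other groups.

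Across the 10 genes, the average Nemo effect was downward for Baat, the enzyme that conjugates bile acids, and for Slc10a1, the uptake transporter, and upward for Cyp27a1, which was higher in the Nemo line (0.77) and not in the Nemo_CXCR6 line (-0.01). These 3 were called in the average Nemo effect (1 higher and 2 lower), where 20.3% of all genes tested were called, 4.84% higher and 15.4% lower. Baat was the single member called in double KO against Cxcr6 KO, where 7.41% of all genes were called, 3.44% higher and 3.96% lower. No member was called by limma in Nemo KO against wildtype, where 0.158% of all genes were called (0.0491% higher and 0.109% lower). At an unadjusted p under 0.05 stood 3 of the 10 members and 24.6% of all genes. The call was kept under 17 of 17 alternatives for Baat, 9 for Slc10a1 and 7 for Cyp27a1, and with a replicate block Slc10a1 (adjusted p = 0.0546) and Cyp27a1 (adjusted p = 0.0570) missed 5%. The share of members called was close to the background of all genes. The median change of the 10 members was -0.01 in the average Nemo effect, against -0.04 for all genes.

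**Figure D1:**
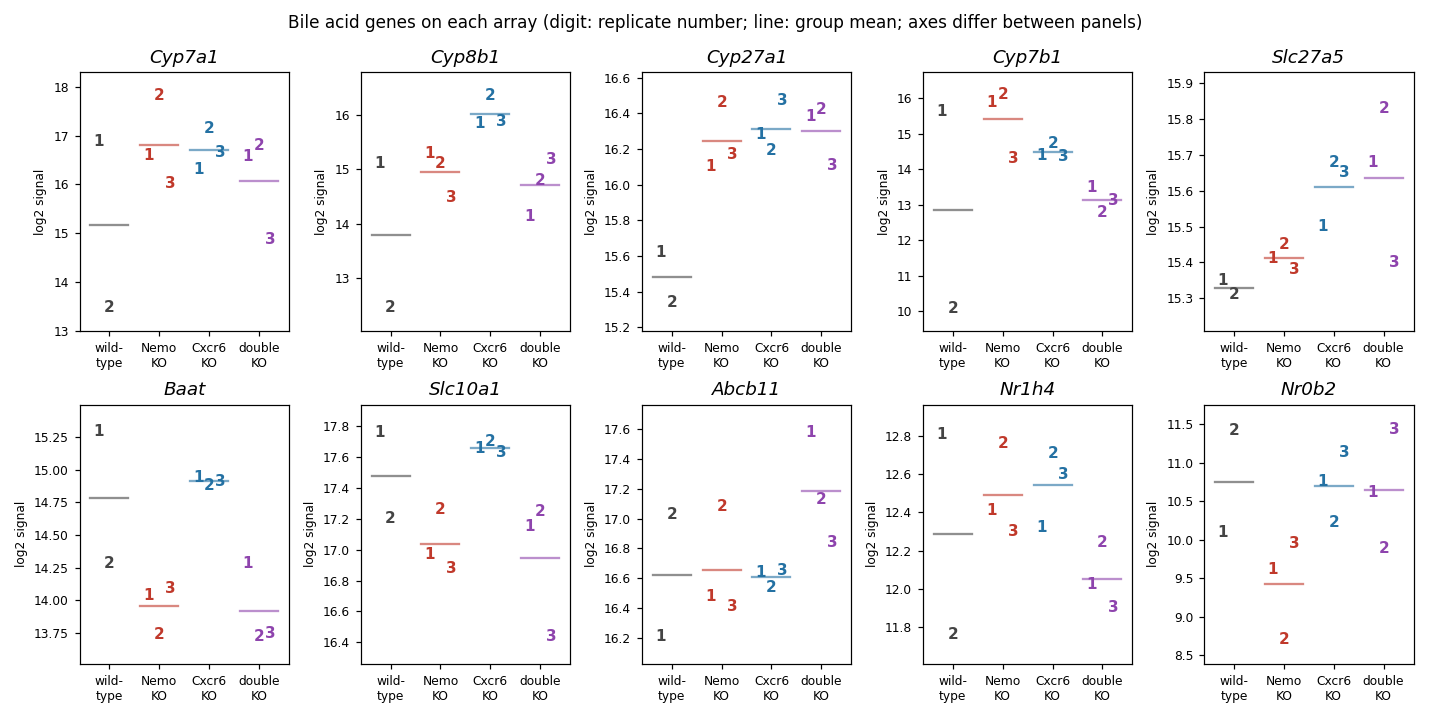
Log2 signal of each of the 10 bile acid genes (vertical axis, with its own range in each panel) on the 11 arrays, by genotype, with each digit 1 array and each line a group mean. Baat was lower on the arrays with Nemo deletion (13.72 to 14.28) than in Cxcr6 KO (14.88 to 14.94), and wildtype replicate 2 had the lowest Cyp7a1, Cyp8b1 and Cyp7b1.

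The classic route is set by Cyp7a1, its rate-limiting cholesterol hydroxylase. Cyp7a1 had log2 signals of 16.88 and 13.47 in wildtype, 16.60, 17.82 and 16.01 in Nemo KO, 16.31, 17.14 and 16.65 in Cxcr6 KO, and 16.56, 16.80 and 14.87 in double KO. All 4 groups overlapped, and the 2 lowest values were those of wildtype replicate 2 and double KO replicate 3. The change with Nemo deletion was 1.64 ± 0.96 in the Nemo line (adjusted p = 0.334) and -0.63 ± 0.86 in the Nemo_CXCR6 line (adjusted p = 0.665). The 95% interval of the average Nemo effect ran from -0.95 to 1.96, and these arrays did not settle the direction of Cyp7a1. Without wildtype replicate 2 the change in the Nemo line was -0.07, and without replicate 1 it was 3.34 ± 0.84 (adjusted p = 0.121).

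Cyp8b1, the hydroxylase that directs synthesis to cholic acid, was at its highest in Cxcr6 KO. Its log2 signals were 15.11 and 12.45 in wildtype, 15.29, 15.11 and 14.48 in Nemo KO, 15.85, 16.36 and 15.88 in Cxcr6 KO, and 14.13, 14.80 and 15.18 in double KO. The 3 Cxcr6 KO arrays lay above every other array, and the remaining groups overlapped. The difference of double KO from Cxcr6 KO was -1.32 ± 0.58 (adjusted p = 0.171) with all groups in the fit, -1.32 ± 0.29 (adjusted p = 0.0360) with only these groups, and -1.32 ± 0.30 (adjusted p = 0.0311) without either wildtype array. Over all alternatives its adjusted p ran from 0.0238 to 0.343. In the Nemo line the change was 1.18 ± 0.65 (adjusted p = 0.304) and -0.15 ± 0.43 without wildtype replicate 2, against 2.51 ± 0.43 (adjusted p = 0.0424) without replicate 1. Some clock genes, named after their values were seen, also set Cxcr6 KO apart. The clock output factor Dbp was between 9.90 and 11.55 in Cxcr6 KO and between 6.42 and 9.79 on the other arrays. The core clock factor Arntl was between 6.69 and 7.39 in Cxcr6 KO and at 7.93 to 10.56 elsewhere. Clock (at most 12.26, against at least 12.35 elsewhere) and Npas2 (at most 6.13, against at least 6.19) were also lower on every Cxcr6 KO array. Nr1d2 (at least 12.31, against at most 11.71 elsewhere), Tef (at least 8.12, against at most 7.98) and Hlf (at least 8.18, against at most 8.12) were higher there. In double KO against Cxcr6 KO, 2 of 15 tested clock genes rose, 3 fell and 10 were not called. Of all genes tested, 7.41% were called in that comparison, 3.44% higher and 3.96% lower. None of the 15 was called by limma in Cxcr6 KO against wildtype, where 0.256% of all genes were called. The remaining tested clock genes overlapped, such as Per1 (7.86 to 8.36 in Cxcr6 KO and 5.96 to 8.68 elsewhere) and Nr1d1 (10.89 to 11.60 and 8.26 to 11.43). The part of the clock genes in the result was not tested.

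The alternative route begins with Cyp27a1, the mitochondrial sterol hydroxylase. Cyp27a1 had log2 signals of 15.62 and 15.34 in wildtype, 16.10, 16.46 and 16.17 in Nemo KO, 16.28, 16.19 and 16.47 in Cxcr6 KO, and 16.38, 16.42 and 16.11 in double KO. Both wildtype arrays were below the other 9, which overlapped. The change was 0.77 ± 0.15 in Nemo KO against wildtype (1.70-fold, adjusted p = 0.0653) and 0.84 ± 0.15 in Cxcr6 KO against wildtype (adjusted p = 0.0867), which share the wildtype arrays. In double KO against Cxcr6 KO it was -0.01 ± 0.14, with a 95% interval of -0.32 to 0.30. The average Nemo effect of 0.38 ± 0.10 passed (1.30-fold, adjusted p = 0.0323), with 0.77 in one line and -0.01 in the other. It was called under 7 of 17 alternatives, with adjusted p between 0.0362 and 0.0787, and missed 5% when either wildtype array was left out (0.31 and 0.45, adjusted p = 0.0787 and 0.0516) or when Cxcr6 KO replicate 1 or 2, double KO replicate 1 or 2 or Nemo KO replicate 2 was left out.

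Cyp7b1, the oxysterol hydroxylase that follows Cyp27a1, had the widest range of the 10 genes, from 10.09 to 16.09. Its log2 signals were 15.63 and 10.09 in wildtype, 15.88, 16.09 and 14.29 in Nemo KO, 14.40, 14.73 and 14.35 in Cxcr6 KO, and 13.48, 12.78 and 13.13 in double KO. Every double KO array was below every Nemo KO and Cxcr6 KO array, and wildtype replicate 2 was below all others. The difference of double KO from Cxcr6 KO was -1.36, with a standard error of 1.13 and adjusted p = 0.461 when the spread was pooled over all groups. With only these groups in the fit the standard error was 0.20 and the adjusted p 0.0147, and without either wildtype array they were 0.43 and 0.0752. The difference of double KO from Nemo KO was -2.29 ± 1.13 (adjusted p = 0.343). Against wildtype the sign rested on a single array, since the change in Nemo KO was 2.56 ± 1.27 with both wildtype arrays, -0.21 ± 0.61 without replicate 2 and 5.33 ± 0.61 (adjusted p = 0.0121) without replicate 1.

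The clearest change among the 10 genes was that of Baat. Baat, which joins bile acids to taurine or glycine, had log2 signals of 15.29 and 14.28 in wildtype, 14.04, 13.74 and 14.09 in Nemo KO, 14.94, 14.88 and 14.91 in Cxcr6 KO, and 14.28, 13.72 and 13.75 in double KO. In each line every array with Nemo deletion lay below every array without it, although wildtype replicate 2 and double KO replicate 1 were equal to 2 decimals. Baat fell by 0.91 ± 0.18 in the average Nemo effect (1.88-fold lower, adjusted p = 0.0144) and was called under all 17 alternatives run for it, with values of -1.16 to -0.66. It fell by 0.99 ± 0.25 in double KO against Cxcr6 KO (1.99-fold lower, adjusted p = 0.0454). That call was near the threshold and was kept under 7 of 18 alternatives, at values of -1.17 to -0.89. Leaving out Cxcr6 KO replicate 1, 2 or 3, double KO replicate 2 or 3, or Nemo KO replicate 1 or 3 ended it (adjusted p = 0.0538 to 0.140). In Nemo KO against wildtype the change was -0.83 ± 0.28 (adjusted p = 0.113), and -1.34 ± 0.23 (adjusted p = 0.0148) without wildtype replicate 2, against -0.33 ± 0.23 (adjusted p = 0.517) without replicate 1. The difference between the 2 Nemo effects, tested as an interaction, was -0.15 ± 0.37 (adjusted p = 0.883), with a 95% interval of -0.99 to 0.68.

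Slc27a5, the ligase that activates bile acids to their coenzyme A esters before Baat acts, varied least of the 10 genes. It lay at 15.35 and 15.31 in wildtype, 15.41, 15.45 and 15.38 in Nemo KO, 15.50, 15.68 and 15.65 in Cxcr6 KO, and 15.68, 15.83 and 15.40 in double KO. Both groups of the Nemo line lay below the Cxcr6 KO arrays, and double KO overlapped with Nemo KO. The average Nemo effect was 0.05 ± 0.08 with a 95% interval of -0.13 to 0.24. Baat and Slc27a5 act in sequence, and the interval for Slc27a5 did not reach the change seen in Baat.

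Uptake from portal blood depends on Slc10a1, the sodium-dependent taurocholate cotransporter. Slc10a1 had log2 signals of 17.76 and 17.20 in wildtype, 16.97, 17.26 and 16.88 in Nemo KO, 17.66, 17.70 and 17.63 in Cxcr6 KO, and 17.15, 17.25 and 16.44 in double KO. In the Nemo_CXCR6 line the groups did not overlap, and in the Nemo line Nemo KO replicate 2 lay above wildtype replicate 2. Slc10a1 fell by 0.58 ± 0.17 in the average Nemo effect (1.49-fold lower, adjusted p = 0.0398). It was called under 9 of 17 alternatives, with values of -0.72 to -0.44 and adjusted p between 0.0208 and 0.149. Leaving out wildtype replicate 1 (-0.44, adjusted p = 0.149), Nemo KO replicate 1 or 3, or any Cxcr6 KO array ended the call. The changes were -0.44 ± 0.25 (adjusted p = 0.311) in the Nemo line and -0.72 ± 0.22 (adjusted p = 0.0769) in the Nemo_CXCR6 line. Without wildtype replicate 2 the value of Slc10a1 in the Nemo line was -0.73, and without replicate 1 it was -0.16.

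Export into bile depends on Abcb11, the bile salt export pump and a direct target of Nr1h4. Abcb11 lay at 16.21 and 17.03 in wildtype, 16.48, 17.08 and 16.41 in Nemo KO, 16.64, 16.54 and 16.65 in Cxcr6 KO, and 17.58, 17.13 and 16.84 in double KO. Its 3 double KO arrays were above the 3 Cxcr6 KO arrays and overlapped with the other groups. The difference of double KO from Cxcr6 KO was 0.57 ± 0.26 (adjusted p = 0.184), the average Nemo effect 0.30 ± 0.20 (adjusted p = 0.314) and the change in the Nemo line 0.04 ± 0.29. That last value was 0.45 without wildtype replicate 2 and -0.37 without replicate 1. Slc10a1 and Abcb11 lay in the upper part of a scale that ended at 19.93, where array signals can saturate and differences be compressed.

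**Figure D2:**
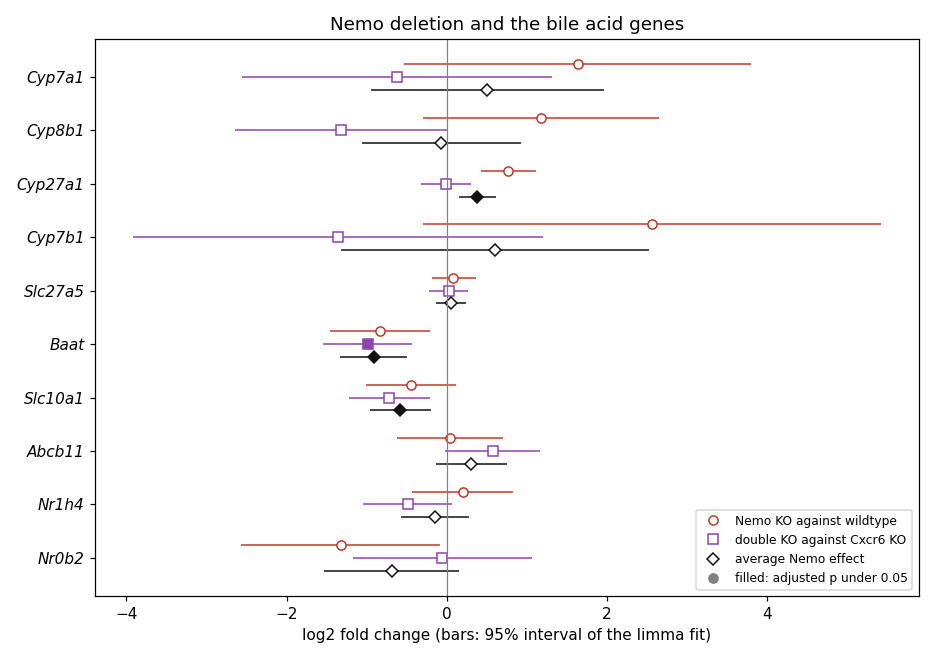
Log2 fold change with Nemo deletion (horizontal axis) of each bile acid gene in the Nemo line, in the Nemo_CXCR6 line and as the average of both, with 95% intervals and filled symbols at an adjusted p under 0.05. Baat lay to the left of 0 in both lines, with an average of -0.91, while Cyp7a1, Cyp8b1 and Cyp7b1 had wide intervals that included 0 in the average.

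Nr1h4, the bile acid receptor, had log2 signals of 12.81 and 11.76 in wildtype, 12.41, 12.76 and 12.30 in Nemo KO, 12.32, 12.71 and 12.60 in Cxcr6 KO, and 12.02, 12.24 and 11.90 in double KO. The double KO arrays lay below all Nemo KO and Cxcr6 KO arrays, by -0.43 ± 0.25 (adjusted p = 0.401) and -0.49 ± 0.25 (adjusted p = 0.228), neither of which passed. Its target Nr0b2, which lacks a DNA-binding domain and represses other nuclear receptors, lay at 10.09 and 11.41 in wildtype, 9.62, 8.71 and 9.95 in Nemo KO, 10.75, 10.22 and 11.13 in Cxcr6 KO, and 10.61, 9.89 and 11.43 in double KO. The Nemo KO arrays were below the wildtype and Cxcr6 KO arrays and overlapped with double KO. Nr0b2 was -1.32 ± 0.55 in Nemo KO against wildtype (adjusted p = 0.180), 1.22 ± 0.49 in double KO against Nemo KO (adjusted p = 0.265) and -0.06 ± 0.49 in double KO against Cxcr6 KO. None of these passed. In Nemo KO against wildtype, Nr0b2 was -0.66 without wildtype replicate 2 and -1.98 without replicate 1, and Nr1h4, at 0.20 ± 0.28 with both, was -0.32 and 0.73.

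Promoter sequences from RefSeq (assembly GRCm38.p6, the 250 bases before the annotated start) were found for 6 of the 10 genes and not for Cyp7a1, Cyp7b1, Baat and Slc27a5. Those of Nr0b2, Abcb11 and Cyp8b1 are shown because they are the textbook targets of the receptor and corepressor pathway whose levels are compared here. Capitals mark matches, on either strand, to AGGTCA (the hexamer bound by many nuclear receptors), CACGTG (an E-box) or TATAAA. These letters occur in 14.0%, 6.02% and 12.4% of 32851 promoter windows of the same length. The windows are chr4:133553126-133553375, plus strand, for Nr0b2, chr2:69342617-69342866, minus strand, for Abcb11, and chr9:121916306-121916555, minus strand, for Cyp8b1.
Nr0b2: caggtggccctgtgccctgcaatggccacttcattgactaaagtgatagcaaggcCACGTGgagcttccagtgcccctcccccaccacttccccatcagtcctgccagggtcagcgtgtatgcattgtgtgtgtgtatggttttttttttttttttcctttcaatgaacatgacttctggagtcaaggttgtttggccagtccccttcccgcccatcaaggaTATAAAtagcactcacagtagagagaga
Abcb11: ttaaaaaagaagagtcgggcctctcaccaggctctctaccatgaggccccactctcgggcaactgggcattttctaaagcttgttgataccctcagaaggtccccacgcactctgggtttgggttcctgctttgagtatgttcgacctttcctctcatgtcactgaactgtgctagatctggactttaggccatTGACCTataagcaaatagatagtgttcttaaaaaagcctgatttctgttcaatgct
Cyp8b1: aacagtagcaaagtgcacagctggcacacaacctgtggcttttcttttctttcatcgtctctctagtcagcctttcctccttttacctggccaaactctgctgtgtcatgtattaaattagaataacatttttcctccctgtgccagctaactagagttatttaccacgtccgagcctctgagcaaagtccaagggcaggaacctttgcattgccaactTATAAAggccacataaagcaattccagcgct
The Nr0b2 window held an E-box whose first base was at -195 and TATAAA at -28, counted from the annotated start. The Abcb11 window held the hexamer on the opposite strand at -56. The Cyp8b1 window held TATAAA at -31 and no match to the other letters. A match describes the sequence and does not show a bound site.

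Several members also varied between arrays of a genotype. Wildtype replicate 2 had the lowest value of the 11 arrays for 6 of the 10 genes (Cyp7a1, Cyp8b1, Cyp27a1, Cyp7b1, Slc27a5 and Nr1h4), against 7.32% of all genes, and the highest for 0 of the 10, against 8.87%. It also had the next to highest Nr0b2, 11.41, and double KO replicate 3 had the highest Nr0b2, 11.43, the next to lowest Cyp7a1, 14.87, and the lowest Slc10a1, 16.44. At the other end, Nemo KO replicate 2 had the lowest Nr0b2, 8.71, with the highest Cyp7a1, 17.82, and the highest Cyp7b1, 16.09. Not every array followed this order. Cxcr6 KO replicate 3, with the next highest Nr0b2 (11.13), had a Cyp7a1 of 16.65 and a Cyp8b1 of 15.88. Double KO replicate 3 had the highest Cyp8b1 of its group, 15.18. Cell cycle genes were highest on 2 of these arrays. The proliferation marker Mki67 was highest in double KO replicate 3 (12.38) and wildtype replicate 2 (11.18), against 5.35 in wildtype replicate 1. The mean of 11 cell cycle genes was 8.22 and 7.45 in the first pair and 5.33 to 7.03 on the other arrays. It was 6.27 on Nemo KO replicate 2, and double KO replicate 2, at 7.03, had a Cyp7a1 of 16.80. The part of the cell cycle genes in the result was not tested.

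**Figure D3:**
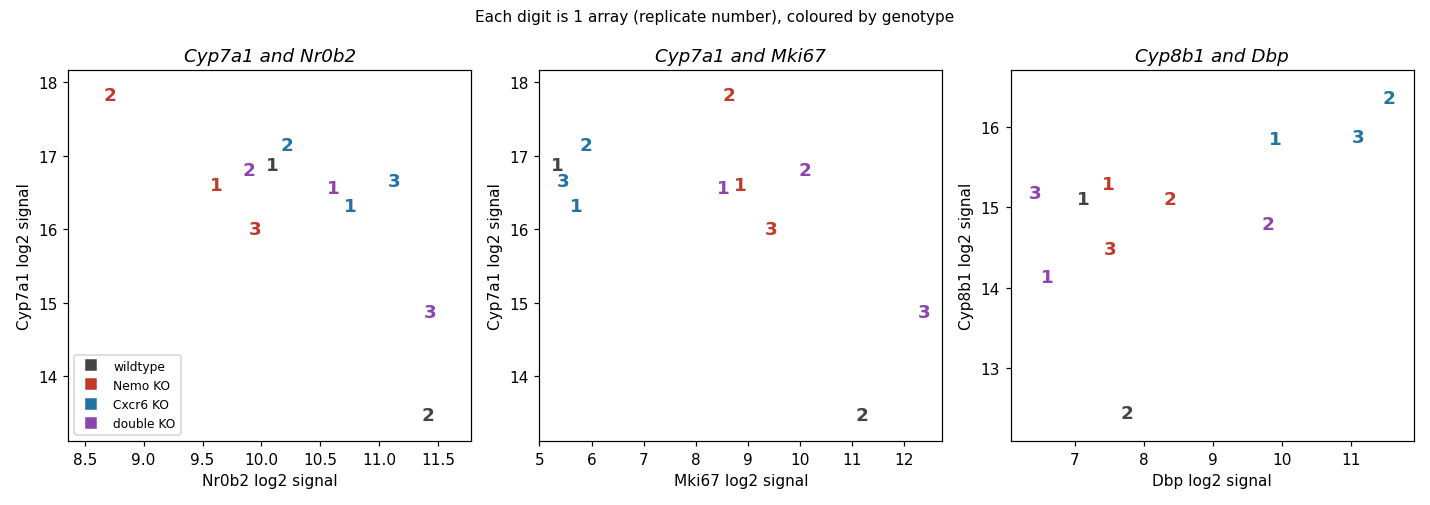
Log2 signals of Cyp7a1 against Nr0b2 and against Mki67, and of Cyp8b1 against Dbp, with each digit 1 of the 11 arrays coloured by genotype. The 2 arrays with the lowest Cyp7a1 (13.47 and 14.87) had the highest Nr0b2 (11.41 and 11.43). Cxcr6 KO replicate 3, with the next highest Nr0b2 (11.13), had a Cyp7a1 of 16.65. The 3 Cxcr6 KO arrays had the highest Cyp8b1 and the highest Dbp.

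The genes whose pattern was most like that of the widest-ranging members were found by Pearson's r over the 11 arrays, which share genotype and mouse line. For Cyp8b1 they were the natriuretic peptide receptor Npr2 (r = 0.97), the NADPH oxidase Nox4 (0.97) and the cytochrome P450 gene Cyp2d9 (0.95), and r was 0.92, 0.94 and 0.89 over the 10 arrays without wildtype replicate 2. For Cyp7a1 they were Spink4 (0.93), Fam184b (0.90) and Sapcd1 (0.86), which fell to 0.86, 0.73 and 0.58 without that array. For Cyp7b1 they were Sapcd1 (0.92), the very long chain acyl-CoA synthetase Slc27a2 (0.89), which also acts in bile acid synthesis, and the major urinary protein Mup6 (0.88), at 0.80, 0.69 and 0.68 without it. The likeness for Cyp7a1 and Cyp7b1 thus rested in part on wildtype replicate 2.

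Loss of Cxcr6, together with the change of line, called none of the 10 members. In Cxcr6 KO against wildtype, 0.256% of all genes were called by limma (0.175% higher and 0.0818% lower), and 3 members and 11.1% of all genes had an unadjusted p under 0.05. In double KO against Nemo KO the background was 0.594% (0.365% higher and 0.229% lower), and 1 member and 16.8% of all genes had an unadjusted p under 0.05. Cyp8b1 was 2.24 ± 0.65 higher in Cxcr6 KO than in wildtype (adjusted p = 0.220) and 0.91 ± 0.43 (adjusted p = 0.416) without wildtype replicate 2, against 3.57 ± 0.43 (adjusted p = 0.00821) without replicate 1. In the interaction, which asks whether the Nemo effect differs between the lines, no gene of the 18337 passed, and 3 members and 11.8% of all genes had an unadjusted p under 0.05. These were Cyp27a1 (-0.78 ± 0.21, adjusted p = 0.265), Cyp8b1 (-2.50 ± 0.88, adjusted p = 0.341) and Cyp7b1 (-3.92 ± 1.70, adjusted p = 0.416). For Cyp27a1 the interaction was -0.64 without wildtype replicate 2 and -0.92 without replicate 1. Cyp8b1 was -1.17 (adjusted p = 0.361) and -3.83 (adjusted p = 0.0173), and Cyp7b1 -1.15 (adjusted p = 0.536) and -6.69 (adjusted p = 0.00836), in the same order.

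Separation of the arrays gave a fuller picture within the Nemo_CXCR6 line. The arrays of double KO and Cxcr6 KO did not overlap for 6 of the 10 members. Cyp8b1, Cyp7b1, Baat, Slc10a1 and Nr1h4 were lower on every double KO array and Abcb11 was higher. Of all genes tested, 37.7% did not overlap, 24.4% lower and 13.3% higher. In Nemo KO against wildtype 2 members were higher (Cyp27a1 and Slc27a5) and 2 lower (Baat and Nr0b2) on every array, against 11.3% and 24.7% of all genes (36% in all). In Cxcr6 KO against wildtype 3 members were higher on every array (Cyp8b1, Cyp27a1 and Slc27a5) and 0 lower, against 12.7% and 11.2% of all genes (23.9% in all). Between double KO and Nemo KO 2 were lower (Cyp7b1 and Nr1h4) and 0 higher, against 9.94% and 12.9% (22.8% in all). Baat was the member that was lower on every array in both lines.

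Many markers of other liver cells were called higher in double KO than in Cxcr6 KO, where 3.44% of all genes were. None of these lists had a gene called by limma in Nemo KO against wildtype, where 0.158% of all genes were called. In that comparison 44.6% of all genes had positive changes. Positive changes were found there for 9 of 9 endothelial, 9 of 9 stellate, 10 of 10 Kupffer and 5 of 6 cholangiocyte markers. Their list medians there were 0.45, 0.33, 0.68 and 0.27. The average Nemo effect called 9, 8, 5 and 3 of them higher, against 4.84% of all genes. Of the tested endothelial markers 9 of 9 rose in double KO against Cxcr6 KO, as did 7 of 9 stellate cell and fibroblast markers, 4 of 10 Kupffer cell and macrophage markers and 3 of 6 cholangiocyte markers. Alas2, the single erythroid marker tested of 4 listed, fell by 1.60 ± 0.27 (adjusted p = 0.0163). Mean endothelial levels were 8.58 to 9.51 in double KO, 6.58 to 7.34 in Cxcr6 KO, 7.65 to 8.20 in Nemo KO and 7.30 to 7.37 in wildtype. Mean stellate levels were 7.15 to 8.06, 5.99 to 6.21, 6.86 to 7.0 and 6.15 to 6.6 in the same order, mean Kupffer levels 8.07 to 9.05, 6.94 to 7.23, 7.26 to 8.74 and 6.61 to 7.56, and mean cholangiocyte levels 6.30 to 7.18, 5.68 to 5.80, 5.95 to 6.06 and 5.74 to 5.92. The cholangiocyte markers Krt19 and Cftr, the stellate marker Des and 6 of 10 T and NK cell markers, Cd3e, Cd8a and Cd4 among them, lay below the signal minimum of 5.27. Of 10 hepatocyte markers none was called in double KO against Cxcr6 KO, and Fah (-0.52) and Cyp2e1 (-0.30) fell in the average Nemo effect. Acute phase and inflammation genes also moved: of 10 tested, 5 rose and 1 fell in the average Nemo effect, with list means of 11.13 to 11.97 in Nemo KO, 10.39 to 10.81 in double KO, 10.01 to 10.27 in Cxcr6 KO, and 10.29 and 10.91 in wildtype. Fewer hepatocytes in a sample and less RNA per hepatocyte cannot be told apart in these bulk samples. The part of the other cells and of inflammation in the results on bile acid genes was not tested.

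The other enzymes of bile acid synthesis were described from a list of 22 genes, of which 20 were tested. In the average Nemo effect 2 rose, 4 fell and 14 were not called, with a list median of -0.28 against -0.04 for all genes. Over all genes 4.84% rose and 15.4% fell, so the counts of this list and of those that follow stand beside a background of 20.3% called. Akr1d1, the steroid reductase that saturates the ring of both primary bile acids, fell by 1.29 ± 0.25 (2.44-fold lower, adjusted p = 0.0136). Akr1d1 lay at 13.46 and 13.59 in wildtype, 11.76, 11.41 and 12.34 in Nemo KO, 14.33, 14.31 and 14.58 in Cxcr6 KO, and 14.20, 13.57 and 12.77 in double KO, with no overlap in either line. The hydroxysteroid dehydrogenase Akr1c6 fell by 0.65 ± 0.12 (adjusted p = 0.0123), and both were called under all 17 alternatives. Akr1c6 has near-identical relatives that can share its signal.

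Of the remaining called enzymes, the peroxisomal thioesterase Acot8 fell by 0.37 ± 0.11. The cholesterol hydroxylase Cyp46a1 was also called lower, but lay at 5.03 to 5.47 on all arrays, at the level of the array medians, so its difference has no clear signal behind it. Cyp2a12 and Cyp2c70, the mouse hydroxylases that act on secondary bile acids and make muricholic acids, rose by 0.32 ± 0.08 (adjusted p = 0.0274) and 0.46 ± 0.14 (adjusted p = 0.0483). Cyp2c70 was called under 3 of 17 alternatives and Acot8 under 6, so both calls lay at the threshold. Each call of Acot8, Cyp2a12 and Cyp2c70 was lost without wildtype replicate 1, among other arrays. In double KO against Cxcr6 KO, Cyp2c70 rose by 0.93 ± 0.19 (adjusted p = 0.0246), from 17.25, 16.84 and 16.73 to 18.25, 17.73 and 17.63, while the other line had 17.73 and 18.01 in wildtype and 17.73 to 17.93 in Nemo KO. Cxcr6 KO was thus the group that stood apart for Cyp2c70, and the call was lost without Cxcr6 KO replicate 2 or 3 or double KO replicate 2 or 3.

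Cxcr6 KO also stood apart, in the upward direction, for 3 peroxisomal genes. Acaa1a, Acaa1b and Abcd3, which also serve fatty acid oxidation, rose in Cxcr6 KO against wildtype by 1.26 ± 0.19, 1.98 ± 0.29 and 1.27 ± 0.19 (adjusted p = 0.0430, 0.0419 and 0.0430) and fell in double KO against Cxcr6 KO by 0.94, 1.20 and 0.78. The other peroxisomal genes of side chain shortening were not called in either comparison, and in Cxcr6 KO against wildtype Acox2 was -0.04, Amacr 0.00, Scp2 -0.07 and Hsd17b4 0.27. Both comparisons use the Cxcr6 KO arrays. Acaa1b lay at 14.24 and 13.27 in wildtype, 14.49, 14.22 and 13.93 in Nemo KO, 15.41, 15.90 and 15.89 in Cxcr6 KO, and 14.49, 14.35 and 14.76 in double KO. The calls against wildtype were kept under 3, 4 and 2 of 18 alternatives and were lost without any 1 Cxcr6 KO array. Those in double KO against Cxcr6 KO were kept under 14, 13 and 13 of 18, and each was lost without Cxcr6 KO replicate 2 or 3 or double KO replicate 2 or 3. Hsd3b7, which follows Cyp7a1 in the pathway, was 0.28 ± 0.10 in the average Nemo effect (adjusted p = 0.0711).

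Among 20 tested genes of a list of 22 other transporters, 3 rose, 1 fell and 16 were not called in the average Nemo effect, with a list median of 0.20 and a share called close to that of all genes. Slc10a2, the sodium-dependent bile acid transporter best known from ileum and cholangiocytes, rose by 2.01 ± 0.43 (4.02-fold, adjusted p = 0.0165). It lay at 9.62 and 12.16 in wildtype, 13.27, 13.50 and 12.81 in Nemo KO, 11.04, 10.25 and 11.13 in Cxcr6 KO, and 13.07, 12.53 and 11.95 in double KO, without overlap within a line. Abcb4, the canalicular phospholipid floppase that protects against bile acid toxicity, rose by 1.33 ± 0.24 (2.51-fold, adjusted p = 0.0117). Abcb4 lay at 14.12 and 13.91 in wildtype, 15.48, 16.07 and 14.94 in Nemo KO, 14.35, 14.58 and 14.64 in Cxcr6 KO, and 15.40, 15.33 and 16.37 in double KO. Every array with Nemo deletion was above every array without it, and both Slc10a2 and Abcb4 were called under all 17 alternatives.

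The sinusoidal uptake transporter Slco1a1 was lower in double KO (13.57, 14.01 and 14.38) than on all other arrays (15.32 to 16.61), and it fell by 2.53 ± 0.31 in double KO against Cxcr6 KO (adjusted p = 0.00839). In the Nemo line Slco1a1 was 0.23 ± 0.35 (adjusted p = 0.736), so the average Nemo effect of -1.15 ± 0.24 (adjusted p = 0.0146) joins unlike values, though their difference did not pass (-2.76 ± 0.47, adjusted p = 0.251). Slco1a1 was the single gene of the bile acid lists called in double KO against Nemo KO (-2.14 ± 0.31, adjusted p = 0.0329), a call kept under 8 of 18 alternatives and lost without any 1 double KO or Cxcr6 KO array or Nemo KO replicate 1 or 2. The epoxide hydrolase Ephx1, also proposed as a bile acid carrier, rose by 0.77 ± 0.20 (adjusted p = 0.0278), a call lost without wildtype replicate 2 and without Nemo KO replicate 2, double KO replicate 2 or 3 or any Cxcr6 KO array. The basolateral exporter subunit Slc51b lay at 9.67, 8.39 and 8.05 in double KO, above 6.90, 6.85 and 7.10 in Cxcr6 KO (1.75 ± 0.58, adjusted p = 0.0892), and its partner Slc51a was below the signal minimum. The exporters Abcc4 (0.83 ± 0.26, adjusted p = 0.0803) and Abcc2 (0.13 ± 0.23, adjusted p = 0.752) were not called in that comparison, nor was the uptake transporter Slco1b2 (-0.44 ± 0.23, adjusted p = 0.232).

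Of 18 tested regulators among the 27 listed, none rose and 5 fell in the average Nemo effect, with a list median of -0.35 against -0.04 for all genes. Klb, the coreceptor through which the ileal hormone Fgf15 lowers Cyp7a1, fell by 0.95 ± 0.22 (1.93-fold lower, adjusted p = 0.0205), from 11.76 and 11.45 in wildtype and 11.98, 12.22 and 12.05 in Cxcr6 KO to 10.83, 11.29 and 10.33 in Nemo KO and 11.15, 11.42 and 10.36 in double KO. Its receptor partner Fgfr4 was 0.29 ± 0.13 (adjusted p = 0.160), and Fgf15 itself lay below the signal minimum. Hnf4a and Nr5a2, nuclear receptors that drive Cyp7a1 and Cyp8b1, fell by 0.57 ± 0.14 (adjusted p = 0.0217) and 0.43 ± 0.12 (adjusted p = 0.0346). Ppara, the fatty acid receptor, fell by 0.64 ± 0.12 (adjusted p = 0.0127), yet lay between 12.14 and 12.16 on the 3 Nemo KO arrays and at 12.15 on both wildtype arrays, while it fell by 1.28 ± 0.16 in the Nemo_CXCR6 line (adjusted p = 0.00856). The difference between the lines did not pass for Ppara (-1.28 ± 0.25, adjusted p = 0.251). Nr2f2 fell by 0.39 ± 0.11 (adjusted p = 0.0353). Ppara was called under all 17 alternatives, Klb under 15, Hnf4a under 13, Nr5a2 under 8 and Nr2f2 under 7. Klb lost the call without wildtype replicate 1 or Cxcr6 KO replicate 2, and Hnf4a without either of these, Cxcr6 KO replicate 3 or double KO replicate 2.

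Of 12 tested genes of bile acid conjugation and detoxification among 14 listed, only Cyp4a14 was called in the average Nemo effect. This fatty acid hydroxylase fell by 2.63 ± 0.49 (6.19-fold lower, adjusted p = 0.0122), from 17.96 and 14.72 in wildtype to 12.42, 12.96 and 12.47 in Nemo KO, and from 17.82, 17.64 and 17.91 in Cxcr6 KO to 16.60, 15.78 and 16.40 in double KO. The bile acid sulfotransferase Sult2a8 fell by 1.49 ± 0.38 in double KO against Cxcr6 KO (adjusted p = 0.0482), a call kept under 8 of 18 alternatives and lost without any 1 array of either group.

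Of 15 tested genes in a list of 17 known Fxr targets, which also holds Nr0b2, Abcb11, Abcb4 and Slc51b, 2 rose, 1 fell and 12 were not called in the average Nemo effect, with a median of 0.14. Abcb4 and the heparan sulfate proteoglycan gene Sdc1 (0.68 ± 0.18, adjusted p = 0.0310) rose, and the phospholipid transfer protein gene Pltp fell by 1.09 ± 0.26 (adjusted p = 0.0208). Sdc1 was called under 8 of 17 alternatives and Pltp under 15, and both lost the call without wildtype replicate 1 or Cxcr6 KO replicate 2. Called genes were thus 3 of 15, near the share of all genes (20.3%).

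**Figure D4:**
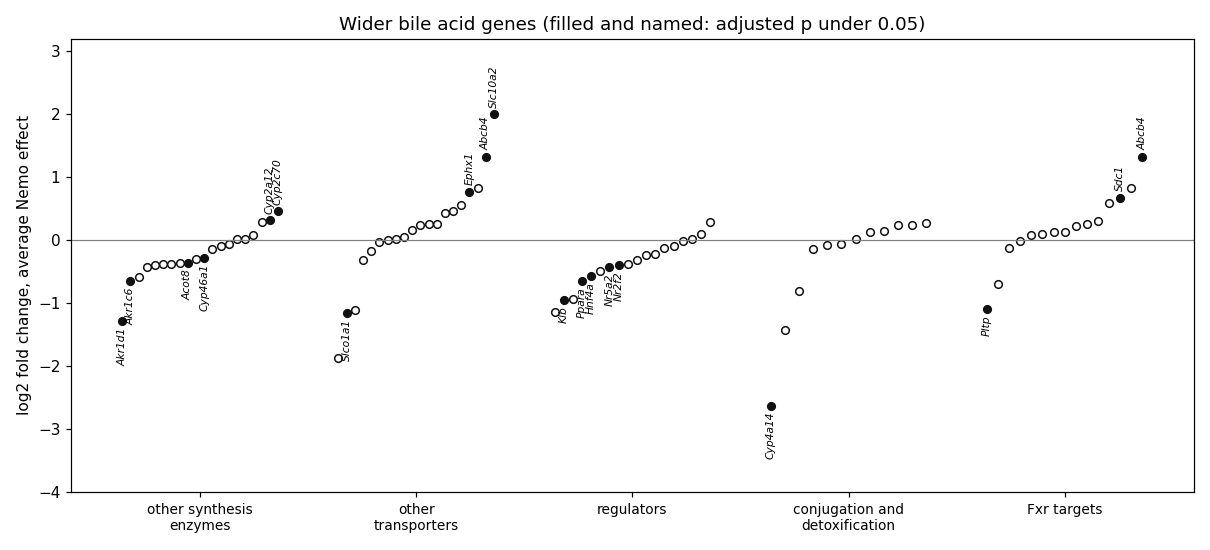
Log2 fold change in the average Nemo effect (vertical axis) of each tested gene in 5 lists of other bile acid genes, ordered by size within a list, with filled and named symbols at an adjusted p under 0.05. Slc10a2 (2.01) and Abcb4 (1.33) were the highest called genes and Cyp4a14 (-2.63) and Akr1d1 (-1.29) the lowest.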

How the data were processed

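RNA of 11 samples, 300 ng of total RNA each, was hybridised to expression arrays, per the labels' protocols. The submitters' processing notes name Affymetrix Expression Console, RMA and Transcriptome Analysis Console, without versions, and the authors deposited one log2 signal per array row. Precision is limited by how many arrays each group has. The genome build behind the rows is not stated in the labels.

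Of 65956 rows, 30604 had 1 gene symbol (repeats of a symbol counted once), 2146 several and 33206 none, and 22818 named rows matched RefSeq (GRCm38.p6). A gene with several rows was represented by the one with the greatest mean signal, and 355 genes had several. Genes were tested where the highest group mean reached the median row mean, 5.27. The fit used limma 3.58.1 in R 4.3.3 (lmFit, eBayes without trend, two-sided, 7 residual and 2.13 prior degrees of freedom). Groups were taken from the labels, and the 4 pairwise comparisons, the average Nemo effect and the interaction were tested.

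The members and lists were chosen with earlier results of these data known. The text names the 10 members, up to 6 called genes with the smallest p per bile acid list and comparison, up to 3 genes per other list, and the 3 genes most like each of the 3 widest-ranging members. Abcc2, Abcc4, Slco1b2, Slc51b, Fgfr4, Hsd3b7, Acox2, Amacr, Scp2, Hsd17b4, Per1, Nr1d1, Mki67 and the markers below the signal minimum were named after their values were seen. So were Dbp, Arntl, Clock, Npas2, Nr1d2, Tef, Hlf, Onecut1, Cyp2b9 and Asgr1. Alternatives covered the groups fitted, the filter, the scaling, a trend, array weights, a replicate block and each array left out.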

Additional observations from a re-analysis of the deposited data

How the results depend on the processing

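Of 1060 values of the 10 genes under alternatives, 29 lost a call, 19 gained one and 52 changed sign without a call on either side. Baat in the average Nemo effect kept its direction and its call under all 17. Of 60 values (10 genes in 6 comparisons), 15 turned sign without wildtype replicate 2, over 8 genes, and 3 without replicate 1. Among them were Cyp7a1 in the average Nemo effect (-0.348 without replicate 2), in Cxcr6 KO against wildtype (-0.179) and in Nemo KO against wildtype (-0.071). Without wildtype replicate 2 the sign also turned for Cyp7b1 in the average Nemo effect (range over left-out arrays -0.786 to 1.982), in Cxcr6 KO against wildtype (-1.137 to 4.398) and in Nemo KO against wildtype (-0.209 to 5.326), and for Cyp8b1 in Nemo KO against wildtype (-0.153 to 2.51). Each lowest value in these ranges is the one without that array and each highest the one without wildtype replicate 1.

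With one array left out at a time, members called ran from 1 to 3 in the average Nemo effect, 0 to 2 in double KO against Cxcr6 KO, 0 to 2 in Nemo KO against wildtype, 0 to 3 in Cxcr6 KO against wildtype, 0 to 2 in the interaction and 0 to 0 in double KO against Nemo KO. Genes called ran from 1369 to 5026, 116 to 2352, 0 to 2369, 8 to 486, 0 to 230 and 19 to 161 in the same order. Leaving out wildtype replicate 1 gave 1369, 2352, 184, 486, 230 and 161 in that order, and leaving out replicate 2 gave 5026, 2352, 2369, 357, 88 and 161. The cause was not tested.

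With only the groups compared in the fit, genes called were 0 in Nemo KO against wildtype (29 with all groups), 2766 in double KO against Cxcr6 KO (1358), 0 in Cxcr6 KO against wildtype (47) and 11 in double KO against Nemo KO (109), and 3 members were called in double KO against Cxcr6 KO. With estimated array weights the counts were 0, 4692, 16 and 971, with 5 members in double KO against Cxcr6 KO. With arrays centred on their medians they were 1319 in Nemo KO against wildtype (1 member), 28 in Cxcr6 KO against wildtype and 201 in double KO against Nemo KO. Centring, quantile normalization, a trend with robust estimation and no filter each left 0 members called in double KO against Cxcr6 KO. Nemo KO against wildtype had 11 genes with quantile normalization, 11 with a trend and 7 without a filter, and Cxcr6 KO against wildtype had 24 without a filter. Among called genes in Nemo KO against wildtype 31% were higher, against 6.75% after centring and 54.5% after quantile normalization. The share was 46.5%, 58.7% and 37.2% in double KO against Cxcr6 KO, 61.5%, 86.6% and 75% in double KO against Nemo KO, and 68.1%, 64.3% and 80% in Cxcr6 KO against wildtype. After centring, the median change over all genes was 0.16 instead of 0.04 in double KO against Nemo KO and 0.18 instead of 0.04 in the interaction.

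Whether the replicate numbers pair the arrays was not settled. Of 15 same-numbered pairs, 6 had a correlation of deviations over 0.1 (range -0.272 to 0.275, against -0.418 to 0.291 for 30 other pairs). These 6 were the same-numbered pairs of replicates 1 and 2 among wildtype, Nemo KO and double KO. Deviations were taken from group means, so the correlations depend on each other. With the replicate block, 1 member was called in the average Nemo effect, since Cyp27a1 (adjusted p = 0.0570) and Slc10a1 (adjusted p = 0.0546) missed 5%. Genes called with the block were 0 in Nemo KO against wildtype, 24 in Cxcr6 KO against wildtype and 61 in double KO against Nemo KO.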
